A study of Mus musculus with 8 samples.

Results

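The axon guidance ligands and receptors were read in nuclei of adult mouse midbrain from mice labelled wt or mutant for Polycomb repressive complex 2 (PRC2). PRC2 function was not measured in these nuclei. Of 23481 gene rows, 72 belonged to them by symbol: 20 semaphorins, 9 plexins, 2 neuropilins, 3 slits, 4 robos, 3 netrins, 6 netrin receptors, 8 ephrins, 14 Eph receptors and 3 noncoding antisense transcripts of Plxna4. Nuclei had been sorted by FACS and sequenced as 10x Single Cell 3' version 3 libraries. The PRC2 mutant library held 3968 nuclei and the wt library 1772 nuclei, each a pool of 2 female and 1 male mice of the DatCreEed strain at 8 months of age. The strain name joins a Cre under the dopamine transporter gene Dat (Slc6a3) with Eed, a PRC2 subunit; the deleted piece of Eed, and whether the wt mice carried Cre, are not given in the sources used here. Each genotype was thus 1 library of 3 pooled mice, run on 4 flow cell lanes that the table does not keep apart, so the genotypes could not be compared by a test. Differences were called by size.

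Nuclei were split by the summed tags of 4 dopamine genes (Th, Slc6a3, Slc18a2 and Ddc). Nuclei with at least 5 unique molecular identifiers (UMIs) of these genes per 10000 were taken as dopamine nuclei, 2875 in the mutant and 1320 in the wt library, and the remaining 1093 mutant and 452 wt nuclei as other nuclei. All 13 dopamine neuron markers outside the rule had a higher level in dopamine than in other nuclei in both libraries. Lmx1a was nearly level in the mutant, with 100.5 CPM in dopamine and 99.8 CPM in other nuclei. The median of the rule's own tags was 13.7 per 10000 in mutant dopamine nuclei and 24.3 in wt dopamine nuclei, so a fixed value of 5 lay at a different place in each library. Summed UMIs were 68742978 in mutant and 39383984 in wt dopamine nuclei, and 19458348 in mutant and 7156906 in wt other nuclei. A single UMI was therefore worth 0.0145 CPM (UMIs scaled to a library class total of 1e6) in mutant and 0.0254 CPM in wt dopamine nuclei. Nuclei led by glial or vascular markers made up 13.3% of mutant and 24.8% of wt other nuclei, and 0.974% of mutant and 1.44% of wt dopamine nuclei. Eed itself had 41.3 CPM in mutant and 21.4 CPM in wt dopamine nuclei; a 3' tag does not check a deletion whose place is not given. The libraries shared 4 cell barcodes.

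Guidance molecules tell growing axons where to turn, and many stay expressed in the adult, where they act on synapses and branches. Netrins attract axons through Dcc and neogenin and repel them through Unc5 receptors; slits repel through robos. Semaphorins signal through plexins, with neuropilins as co-receptors for most secreted class 3 members, and ephrins signal through Eph receptor tyrosine kinases at cell contacts. In midbrain dopamine neurons these systems are known for steering axons to the forebrain, with netrin 1 and Dcc among the best studied. PRC2 places the repressive mark H3K27me3, which in mammals lies mostly over CG-rich promoters.

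The 4 members called at 1.5-fold or more between mutant and wt dopamine nuclei, after 5 CPM was added to each level, were Slit3, Sema5b, Unc5c and Epha3. Without the added 5 CPM, low members such as Unc5b and Sema3d also passed 1.5-fold. Their promoters are printed because CG content is the promoter feature that PRC2 is known to follow; no mark or binding was measured here. Each is 300 bases from RefSeq on GRCm38.p6, 250 upstream and 50 downstream of an annotated start, read 5′ to 3′ on the gene's strand with every CG in capitals. Slit3 lies at chr11:35121206-35121505 on the plus strand, Sema5b at chr16:35541112-35541411 on the plus strand, Unc5c at chr3:141465314-141465613 on the plus strand and Epha3 at chr16:63864126-63864425 on the minus strand.
Slit3: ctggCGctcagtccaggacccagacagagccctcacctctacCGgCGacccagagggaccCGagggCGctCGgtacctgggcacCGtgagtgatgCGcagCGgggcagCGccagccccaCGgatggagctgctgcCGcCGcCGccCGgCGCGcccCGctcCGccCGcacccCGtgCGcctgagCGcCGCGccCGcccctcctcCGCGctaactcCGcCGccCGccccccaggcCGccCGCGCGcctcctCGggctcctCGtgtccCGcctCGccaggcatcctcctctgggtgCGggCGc
Sema5b: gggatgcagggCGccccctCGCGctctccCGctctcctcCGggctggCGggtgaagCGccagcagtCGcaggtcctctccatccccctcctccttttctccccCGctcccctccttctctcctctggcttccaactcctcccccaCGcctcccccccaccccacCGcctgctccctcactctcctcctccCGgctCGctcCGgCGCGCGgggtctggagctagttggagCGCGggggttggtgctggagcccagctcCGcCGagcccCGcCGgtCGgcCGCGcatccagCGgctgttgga
Unc5c: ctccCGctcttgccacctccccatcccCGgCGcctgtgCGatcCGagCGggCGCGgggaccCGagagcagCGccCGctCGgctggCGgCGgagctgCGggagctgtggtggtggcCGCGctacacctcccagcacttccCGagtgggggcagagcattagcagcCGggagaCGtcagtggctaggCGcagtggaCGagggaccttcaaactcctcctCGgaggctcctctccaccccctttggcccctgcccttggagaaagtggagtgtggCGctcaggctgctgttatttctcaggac
Epha3: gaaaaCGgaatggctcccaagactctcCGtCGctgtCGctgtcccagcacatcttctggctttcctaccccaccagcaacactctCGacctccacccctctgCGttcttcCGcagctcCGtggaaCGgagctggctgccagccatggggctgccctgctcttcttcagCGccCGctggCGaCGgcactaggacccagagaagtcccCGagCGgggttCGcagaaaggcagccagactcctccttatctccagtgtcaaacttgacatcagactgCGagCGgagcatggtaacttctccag
The dinucleotide CG, which reads the same on both strands, occurred 41 times in the Slit3 promoter, 27 times in Sema5b, 24 times in Unc5c and 18 times in Epha3. Among the 59 members with a promoter in the table the median was 23 and the range 2 to 56. A count of 18 or more was found in 57.6% of member promoters, in 55.1% of promoters of all genes measured in dopamine nuclei and in 29.7% of all 27025 promoters. That count is Epha3's own, the lowest of the 4, so all 4 reach it by construction and the shares only place it among other promoters.

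In dopamine nuclei, 60 of the 72 members reached 50 UMIs over both libraries and were called on the ratio of mutant to wt CPM after 5 CPM was added to each. Of these, 1 was 1.5-fold or more higher in the mutant (Slit3) and 3 were lower (Sema5b, Unc5c and Epha3), while 56 lay within 1.5-fold. Over all 16324 genes measured in these nuclei, 1.99% were higher and 1.46% were lower by the same rule. Markers of GABA neurons moved with genotype in the same nuclei: all 3 were detected in both libraries, with a sum of 179 CPM in mutant and 33.97 CPM in wt dopamine nuclei. Gad1 alone had 99.4 CPM in mutant and 4.29 CPM in wt dopamine nuclei, and a tag in 65.2% of mutant and 5.61% of wt dopamine nuclei, or 16.3% of mutant and 0.623% of wt after thinning each nucleus to 2000 UMIs. Their part in the members' differences was not tested. No member reached 2-fold in either direction, against 0.956% of all genes higher and 0.3% lower. The median member log2 ratio was -0.04 and that of all genes 0.02, whereas the median size of the log2 ratio was 0.18 for members and 0.10 for all genes. Within 1.2-fold lay 41 of the 60 members (68.3%), against 84.5% of all measured genes. The added 5 CPM shrinks the ratios of low genes, and 37 of 60 members but 6748 of 16324 genes reached 20 CPM in a library. The median sizes and the 1.2-fold shares were not matched for level. Among genes with 20 CPM or more in a library, 1 of 37 members was higher and 3 were lower, where 1.69% of all such genes were higher and 2.12% lower. All guidance members together made up 1.79% of UMIs in mutant and 1.91% in wt dopamine nuclei, and 1.34% in mutant and 1.31% in wt other nuclei.

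**Figure D1:**
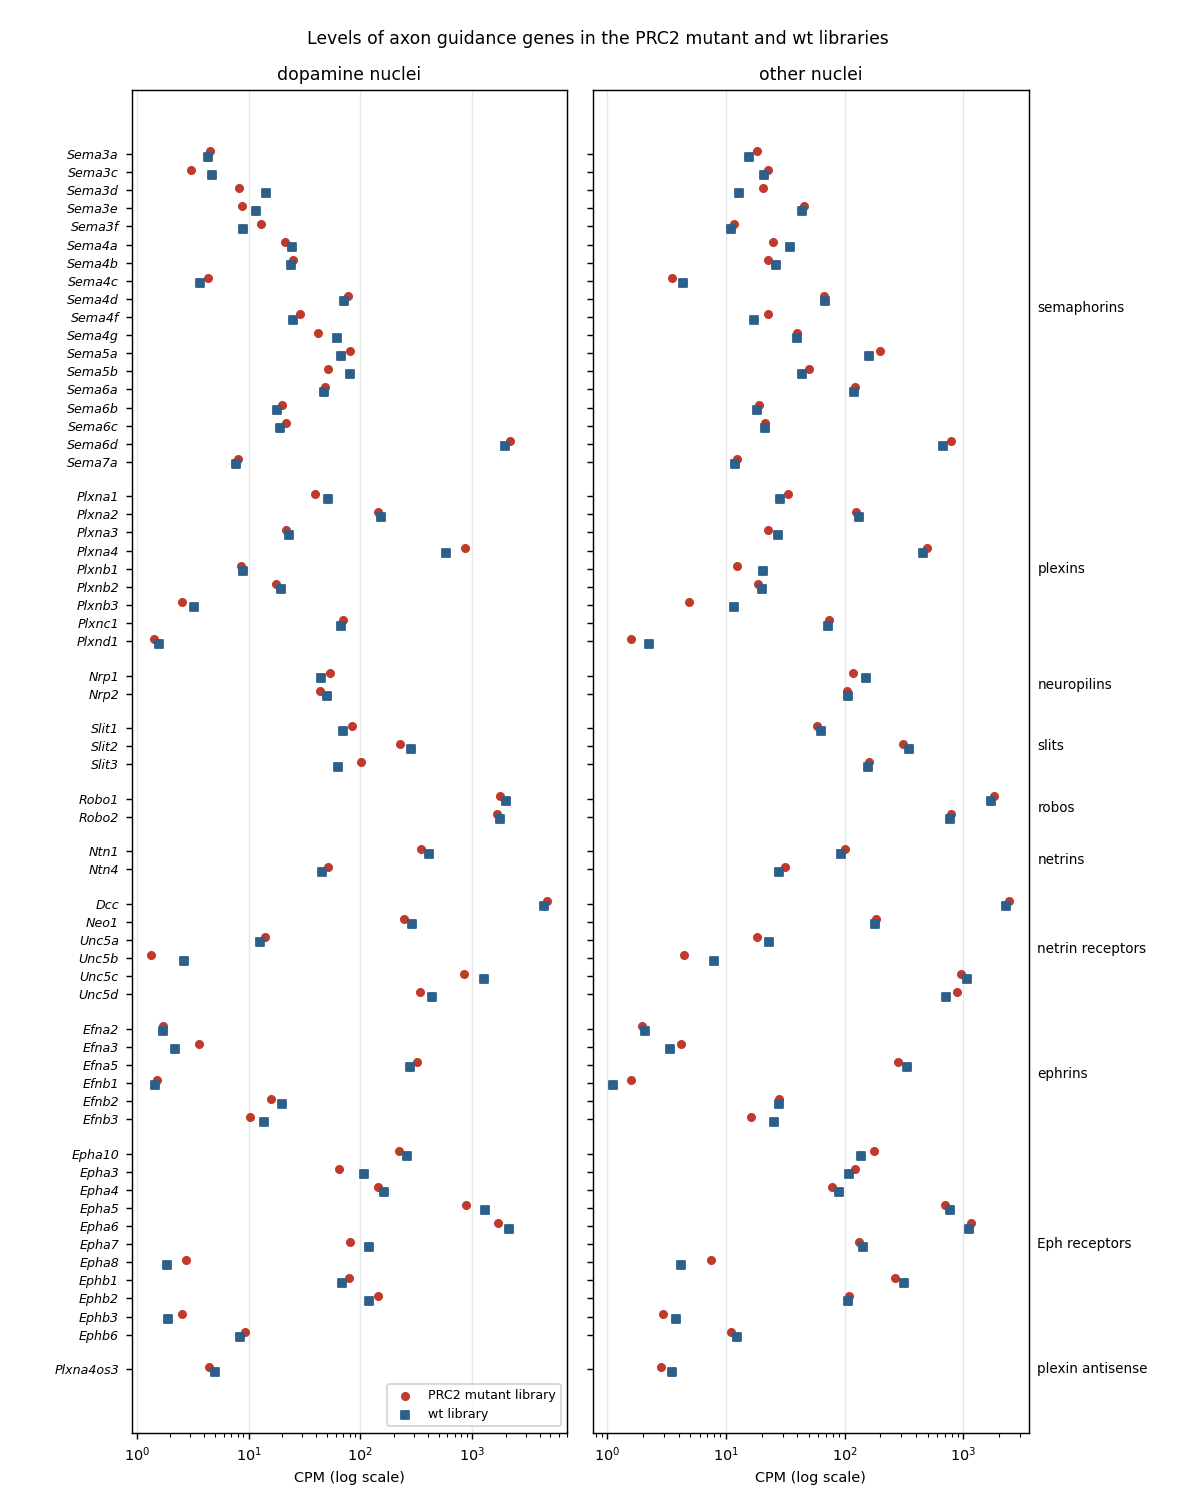
Level of each member measured in dopamine nuclei, as CPM on a log axis, in dopamine nuclei (left) and other nuclei (right); red circles are the PRC2 mutant library and blue squares the wt library, 1 point per library and no error bars. Most pairs of points nearly coincide. Of the members called after 5 CPM was added, Slit3 stands higher and Sema5b, Unc5c and Epha3 stand lower in mutant than in wt dopamine nuclei.

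**Figure D2:**
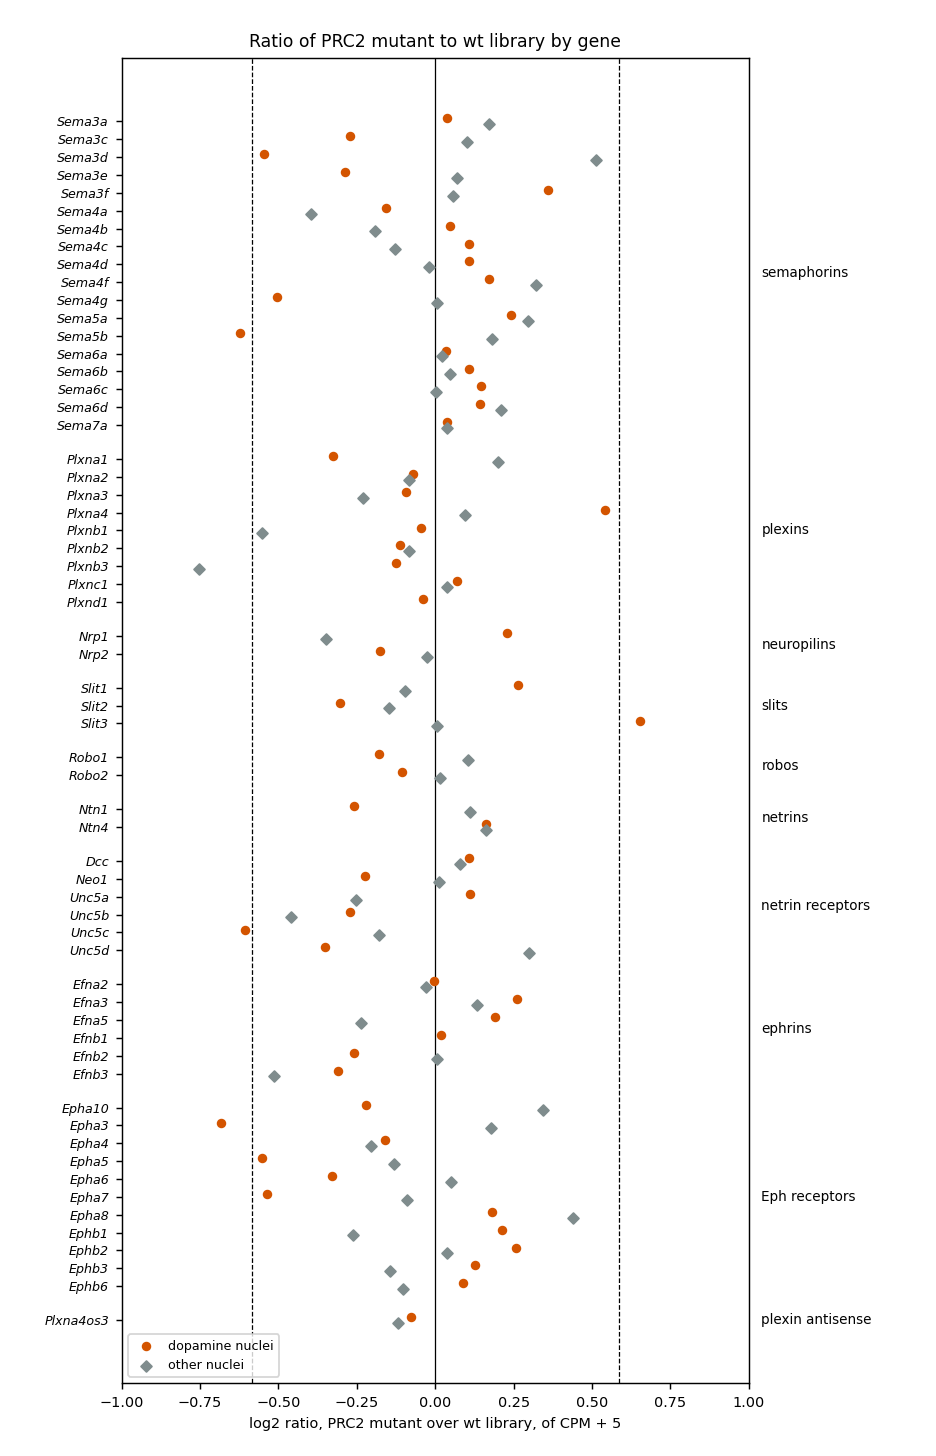
log2 ratio of the PRC2 mutant to the wt library, computed on CPM + 5, for each measured member in dopamine nuclei (orange circles) and other nuclei (grey diamonds), with dashed lines at 1.5-fold. In dopamine nuclei 1 member lies to the right of the lines and 3 lie to the left; in other nuclei Plxnb3 alone lies outside.

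Among netrins and their receptors, Unc5c was called lower in mutant dopamine nuclei and no ligand was called. Unc5c, a netrin receptor that mediates repulsion, had 835 CPM in mutant dopamine nuclei (95% Poisson interval 829 to 842) and 1275 CPM in wt dopamine nuclei (1264 to 1286). It was 1.53-fold lower, with an exact 95% interval of 1.51 to 1.54, and its log2 ratio after adding 5 CPM was -0.61. These intervals cover counting error only and say nothing of differences between mice. In other nuclei Unc5c had 951 CPM in the mutant and 1078 CPM in the wt library. Median depth was 19023 UMIs in mutant and 24257.5 UMIs in wt dopamine nuclei. A tag of Unc5c was found in 70.8% of mutant and 83.2% of wt dopamine nuclei once each nucleus was thinned to 2000 UMIs, and in 96% of mutant and 97.1% of wt dopamine nuclei without thinning. After thinning, glia-led other nuclei, with median depths of 2757 UMIs in the mutant and 3478 UMIs in the wt library, had an Unc5c tag in 45.2% of mutant and 48.2% of wt nuclei. The dopamine nuclei's shares stood above that level in both libraries, and both the level and the share of tagged nuclei were lower in mutant than in wt dopamine nuclei. Unc5c stayed within 1.5-fold when nigral-leaning and tegmental-leaning nuclei were weighted equally. Antisense transcripts Gm15688 and Gm15689 overlap Unc5c on the opposite strand; the strand setting used in counting is not given, and their own levels were under 4 CPM.

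Dcc, the attractive netrin receptor, had 4676 CPM in mutant and 4339 CPM in wt dopamine nuclei and carried 76.5% of its receptor family's mutant UMIs. Neogenin (Neo1), its paralogue, had 247 CPM in mutant and 289 CPM in wt dopamine nuclei. Unc5d had 340 CPM in mutant and 435 CPM in wt dopamine nuclei. All of these lay within 1.5-fold, as did Unc5a at 14.1 CPM in the mutant and 12.7 CPM in the wt library. Unc5b, at low levels, had 1.35 CPM (93 UMIs) in mutant and 2.67 CPM (105 UMIs) in wt dopamine nuclei; it was 1.97-fold lower (1.48 to 2.63) without the added 5 CPM, within 1.5-fold with it, and called lower when 1 CPM was added instead. Netrin 1 (Ntn1), the secreted attractant and repellent, had 346 CPM in mutant and 414 CPM in wt dopamine nuclei, a log2 ratio of -0.26. Ntn4, a laminin-binding netrin, had 50.9 CPM in mutant and 45.0 CPM in wt dopamine nuclei. Ntn5 gave 1 UMI in each library, and Ntn2 and Ntn3 are not rows of the table used here. The receptors' summed level was 6113 CPM in mutant and 6353 CPM in wt dopamine nuclei.

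Among slits and robos, Slit3 was the member called higher in the mutant. This secreted repellent had 101 CPM in mutant dopamine nuclei (95% Poisson interval 99.0 to 104) and 62.7 CPM in wt dopamine nuclei (60.2 to 65.2), a ratio of 1.62 (1.55 to 1.69) and a log2 ratio of 0.65. In other nuclei the 2 libraries had nearly the same Slit3 level, 160 CPM in the mutant and 159 CPM in the wt. The mutant level in dopamine nuclei stood between the wt level there and the level in other nuclei. After thinning, 14.9% of mutant dopamine nuclei (95% exact interval 13.6 to 16.2) and 8.33% of wt dopamine nuclei (6.87 to 9.97) had a Slit3 tag; without thinning it was 51.8% of mutant and 39.2% of wt. Glia-led other nuclei had it in 2.89% of mutant and 3.53% of wt nuclei after thinning. The glial intervals were wide, 0.599 to 8.20 in the mutant and 0.734 to 9.97 in the wt library; the mutant dopamine share lay above its glial interval and the wt dopamine share lay within its own. Slit3 was not called with a limit of 3 dopamine tags per 10000, nor when nigral-leaning and tegmental-leaning nuclei, or ranges of dopamine tags, were weighted equally.

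Slit2 lay within 1.5-fold, with 227 CPM in mutant and 282 CPM in wt dopamine nuclei, and Slit1 had 84.6 CPM in mutant and 69.7 CPM in wt dopamine nuclei. The family sum was therefore almost equal, 413 CPM in mutant and 414 CPM in wt dopamine nuclei. Their receptors Robo1 and Robo2 each lay within 1.2-fold. Robo1 had 1759 CPM in mutant and 1993 CPM in wt dopamine nuclei, and Robo2 had 1652 CPM in mutant and 1780 CPM in wt dopamine nuclei. Robo3 and Robo4 had 23 and 12 UMIs over both libraries and were too low to call.

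Of the 18 measured semaphorins, Sema5b was called lower in mutant dopamine nuclei and none was called higher. Sema5b, a transmembrane semaphorin with thrombospondin repeats, had 51.1 CPM in mutant dopamine nuclei (95% Poisson interval 49.4 to 52.8) and 81.3 CPM in wt dopamine nuclei (78.5 to 84.1). It was 1.59-fold lower (1.52 to 1.67), a log2 ratio of -0.62, while other nuclei had 50.6 CPM in the mutant and 44.0 CPM in the wt library. The share of dopamine nuclei with a tag after thinning was 9.02% in the mutant (8.00 to 10.1) and 11.5% in the wt library (9.82 to 13.4), and their intervals overlapped. Without thinning those shares were 28.4% in mutant and 37.3% in wt dopamine nuclei. Glia-led other nuclei had a tag in 0.962% of mutant nuclei and in 0 of 85 wt nuclei after thinning, which allows a share of up to 4.25% by the exact binomial interval. Sema5b was not called when 10 CPM was added in place of 5, nor under either equal weighting.

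Sema6d, a transmembrane ligand of plexin A1, supplied 82.2% of the mutant semaphorin UMIs in dopamine nuclei, with 2156 CPM in mutant and 1951 CPM in wt dopamine nuclei. Sema4d, the ligand of plexin B1, had 77.7 CPM in mutant and 71.8 CPM in wt dopamine nuclei. Neither differed by 1.2-fold. Sema3d, a secreted class 3 member, came close to the call at 8.29 CPM in mutant and 14.4 CPM in wt dopamine nuclei, and without the added 5 CPM its ratio was 0.576. Sema4g had 42.1 CPM in mutant and 61.8 CPM in wt dopamine nuclei, a log2 ratio of -0.51. Sema3b and Sema3g had 23 and 10 UMIs over both libraries.

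Plexins, the semaphorin receptors, gave no call in dopamine nuclei, although Plxna4 lay just inside 1.5-fold. Plxna4 had 854 CPM in mutant dopamine nuclei (847 to 861) and 585 CPM in wt dopamine nuclei (578 to 593), a log2 ratio of 0.54. After thinning, 78.0% of mutant and 65.6% of wt dopamine nuclei had a Plxna4 tag, against 98.5% of mutant and 95.8% of wt without thinning. Because Plxna4 carried 73.7% of the family's mutant UMIs, summed plexins were 1160 CPM in mutant and 911 CPM in wt dopamine nuclei, a ratio of 1.27. Over the 9 plexins, by contrast, the median log2 ratio was -0.07. The antisense transcript Plxna4os3 had 4.47 CPM in mutant and 4.98 CPM in wt dopamine nuclei, under 1% of the Plxna4 level; Plxna4os1 and Plxna4os2 had 15 and 43 UMIs over both libraries. Plxna2 had 144 CPM in mutant and 152 CPM in wt dopamine nuclei. Neuropilins, which bind class 3 semaphorins, had near equal sums of 96.7 CPM in mutant and 94.5 CPM in wt dopamine nuclei. Nrp1 had 53.1 CPM in mutant and 44.6 CPM in wt dopamine nuclei, and Nrp2 had 43.7 CPM in mutant and 49.9 CPM in wt dopamine nuclei.

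Over all dopamine nuclei, Eph receptors had the lowest sum relative to wt of the 9 families. It was 3340 CPM in mutant and 4288 CPM in wt dopamine nuclei, a 1.28-fold lower level (1.28 to 1.29). Under the alternative settings its log2 ratio there ran from -0.45 to -0.16, against -0.36 as reported. With dopamine tag ranges weighted equally, summed neuropilins were lower still, at -0.63. Members differed in direction in the lowest tag range. Epha6 had 1675 CPM in mutant and 1315 CPM in wt nuclei there, and Ephb1 had 104 CPM in mutant and 191 CPM in wt nuclei. In other nuclei the Eph receptor sum was 2770 CPM in the mutant and 2817 CPM in the wt library. Epha3, a receptor of A-type ephrins, was the one member past the call. It had 65.0 CPM in mutant dopamine nuclei (63.1 to 66.9) and 107 CPM in wt dopamine nuclei (104 to 111), 1.65-fold lower (1.59 to 1.73) with a log2 ratio of -0.68. Other nuclei had 123 CPM of Epha3 in the mutant and 108 CPM in the wt library. A tag after thinning was found in 9.76% of mutant dopamine nuclei (8.70 to 10.9) and 18.4% of wt dopamine nuclei (16.4 to 20.7). Unthinned, the shares were 42.7% of mutant and 65.0% of wt dopamine nuclei; glia-led other nuclei had a tag in 1.92% of mutant and 2.35% of wt nuclei after thinning. The Epha3 level and the share of tagged nuclei were both lower in the mutant, and the intervals of the shares did not overlap. It too stayed within 1.5-fold when nigral-leaning and tegmental-leaning nuclei were weighted equally.

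The other measured A-type receptors lay within 1.5-fold after 5 CPM was added. Epha5 had 880 CPM in mutant and 1293 CPM in wt dopamine nuclei, a log2 ratio of -0.55. Epha7 had 80.9 CPM in mutant and 120 CPM in wt dopamine nuclei, a log2 ratio of -0.54. Epha6, which supplied 51.2% of the family's mutant UMIs, had 1709 CPM in mutant and 2146 CPM in wt dopamine nuclei. The B-type receptors Ephb1 and Ephb2 also lay within 1.5-fold, Ephb1 at 79.4 CPM in the mutant and 67.8 CPM in the wt library and Ephb2 at 143 CPM in the mutant and 119 CPM in the wt library. Epha1, Epha2 and Ephb4 had 13, 12 and 37 UMIs over both libraries. Of their ligands, Efna5 had 320 CPM in mutant and 280 CPM in wt dopamine nuclei and carried 90.5% of the mutant ephrin UMIs. Efnb2, a transmembrane ephrin, had 15.9 CPM in mutant and 19.96 CPM in wt dopamine nuclei. No ephrin was called, and Efna1 and Efna4 had 42 and 5 UMIs over both libraries.

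Counts of 3' tags need not grow with gene length, and the handling of intron reads is not given. Values per length are therefore not levels, and they rank members otherwise than CPM does. Read per length of the annotated gene, Epha10, a receptor without kinase activity, had the highest value in dopamine nuclei. It had 603 CPM per 100 kb in the mutant and 706 CPM per 100 kb in the wt library. Next in the wt library came Sema4g with 294 CPM per 100 kb in the mutant and 432 in the wt library, and Dcc with 426 CPM per 100 kb in the mutant and 395 in the wt library. Epha5, Unc5c, Robo2 and Sema6d followed in wt dopamine nuclei at 357, 345, 342 and 338 CPM per 100 kb. Counting error aside, neighbours among these 4 differ by little, and a single wt library gives no spread for ranking them. Slit3, over 587 kb, had 17.3 CPM per 100 kb in mutant and 10.7 CPM per 100 kb in wt dopamine nuclei. Epha3, over 321 kb, had 20.3 CPM per 100 kb in mutant and 33.5 CPM per 100 kb in wt dopamine nuclei. Slit3 was the lowest of the 3 slits per length in both libraries.

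In other nuclei, 58 members were measured, none was higher in the mutant by 1.5-fold and 1 was lower, where 1% of all 13491 measured genes were higher and 1.94% were lower. The lower member was Plxnb3, a plexin known from oligodendrocytes, with 4.93 CPM (96 UMIs) in the mutant and 11.7 CPM (84 UMIs) in the wt library, a log2 ratio of -0.75. Within oligodendrocyte-led nuclei it had 155 CPM in the mutant and 180 CPM in the wt library, and in nuclei without a leading glial list 1.91 CPM in the mutant and 3.92 CPM in the wt library. All 8 oligodendrocyte markers were detected in other nuclei of both libraries, and their sum was 282 CPM in mutant and 576 CPM in wt other nuclei. With the glia-led nuclei left out, Plxnb3 was not called. In sums over nuclei alone, fewer cells of a type and less RNA per cell cannot be told apart. Oligodendrocyte-led nuclei numbered 63 of 1093 mutant and 50 of 452 wt other nuclei, with median depths of 3664 UMIs and 3601 UMIs. The part of their number in the Plxnb3 difference was not tested. The median member log2 ratio in other nuclei was 0.01, that of all genes -0.01. Slit3, Sema5b, Unc5c and Epha3 had log2 ratios of 0.01, 0.18, -0.18 and 0.18 there, each within 1.5-fold.

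Between dopamine and other nuclei the median size of the members' log2 ratio was 0.38 in the mutant and 0.43 in the wt library, against 0.12 and 0.16 for all genes and 0.18 for the members between genotypes. Members and all genes were not matched for level here. Of 60 members measured in both, 6 were 1.5-fold or more higher in dopamine nuclei in both libraries, where 1.99% of all 14343 genes were, and 10 were lower in both, where 4.23% of all genes were. A further 27 were called in neither library, 17 in 1 library and none in opposite directions. The higher members were Ntn1, Sema6d, Robo2, Dcc, Epha4 and Ntn4. Ntn1 had 346 CPM in dopamine and 100 CPM in other nuclei of the mutant, and 414 CPM in dopamine and 92.6 CPM in other nuclei of the wt library, 3.44-fold in the mutant and 4.47-fold in the wt. Sema6d was 2.74-fold higher in the mutant and 2.87-fold in the wt, Robo2 2.10-fold in the mutant and 2.28-fold in the wt, and Dcc 1.94-fold in the mutant and 1.90-fold in the wt. Ntn1 and its receptor Dcc were thus both at higher levels in dopamine nuclei of either library.

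Lower in dopamine nuclei of both libraries were 3 class 3 semaphorins, Sema3a, Sema3c and Sema3e, the neuropilins Nrp1 and Nrp2, and Sema5a, Sema6a, Slit3, Unc5d and Ephb1. Ephb1 had 79.4 CPM in dopamine and 264 CPM in other nuclei of the mutant, and 67.8 CPM in dopamine and 318 CPM in other nuclei of the wt library. Sema3e had 8.69 CPM in dopamine and 45.9 CPM in other nuclei of the mutant, and 11.7 CPM in dopamine and 43.6 CPM in other nuclei of the wt library. Nrp1 had 53.1 CPM in dopamine and 117 CPM in other nuclei of the mutant, and 44.6 CPM in dopamine and 150 CPM in other nuclei of the wt library. In each case the dopamine value was the lower one in both libraries. Leaving out nuclei led by glial or vascular markers kept 5 of the 6 higher members and all 10 lower members; Ntn4 dropped just under the call, with log2 ratios of 0.58 in the mutant and 0.55 in the wt library. Genes and nuclei are not replicates, and no test was made.

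**Figure D3:**
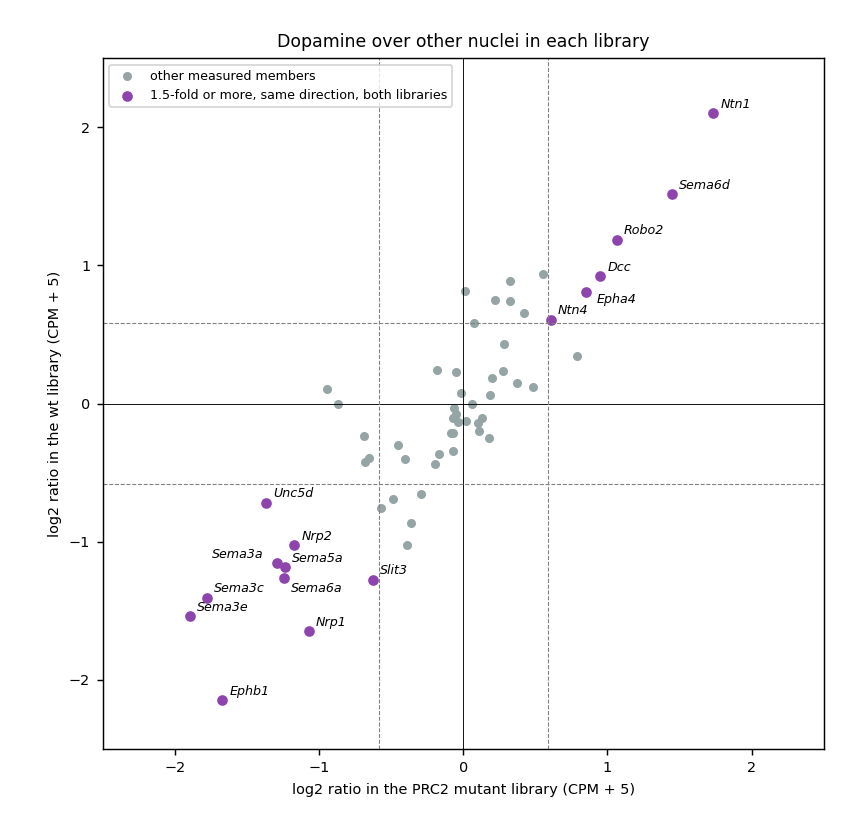
log2 ratio of dopamine to other nuclei on CPM + 5 for each member measured in both libraries, with the PRC2 mutant library on the horizontal and the wt library on the vertical axis; dashed lines mark 1.5-fold and purple points are past it in the same direction in both. Ntn1, Sema6d, Robo2, Dcc, Epha4 and Ntn4 lie in the upper right corner and 10 members lie in the lower left.

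Dopamine neurons of the substantia nigra and of the ventral tegmental area differ in their targets, and dopamine nuclei were set on either side by marker lists. The 8 nigral and 8 tegmental markers put 1893 mutant and 867 wt dopamine nuclei on the nigral side, and 777 mutant and 372 wt nuclei on the tegmental side. In both libraries 2 members were 1.5-fold or more higher in nigral-leaning nuclei, where 1.35% of all 13732 genes were, and 9 were lower, where 1.96% of all genes were. Epha4 had 179 CPM in nigral-leaning and 38.9 CPM in tegmental-leaning nuclei of the mutant, and 197 CPM in nigral-leaning and 51.7 CPM in tegmental-leaning nuclei of the wt library. Epha7 had 93.2 CPM in nigral-leaning and 44.2 CPM in tegmental-leaning nuclei of the mutant, and 138 CPM in nigral-leaning and 66.4 CPM in tegmental-leaning nuclei of the wt library. Both are Eph receptors for A-type ephrins, and Epha4 also binds B-type ephrins. The lower members were Sema3d, Sema5b, Sema6a, Plxnc1, Nrp1, Nrp2, Unc5d, Efnb2 and Ephb1. Nrp2 had 26.3 CPM in nigral-leaning and 102 CPM in tegmental-leaning nuclei of the mutant, and 31.2 CPM in nigral-leaning and 108 CPM in tegmental-leaning nuclei of the wt library. Plxnc1, the receptor of Sema7a, had 54.6 CPM in nigral-leaning and 118 CPM in tegmental-leaning nuclei of the mutant, and 51.1 CPM in nigral-leaning and 114 CPM in tegmental-leaning nuclei of the wt library. Nrp2 was thus 3.87-fold higher in tegmental-leaning nuclei of the mutant and 3.46-fold higher in those of the wt library.

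**Figure D4:**
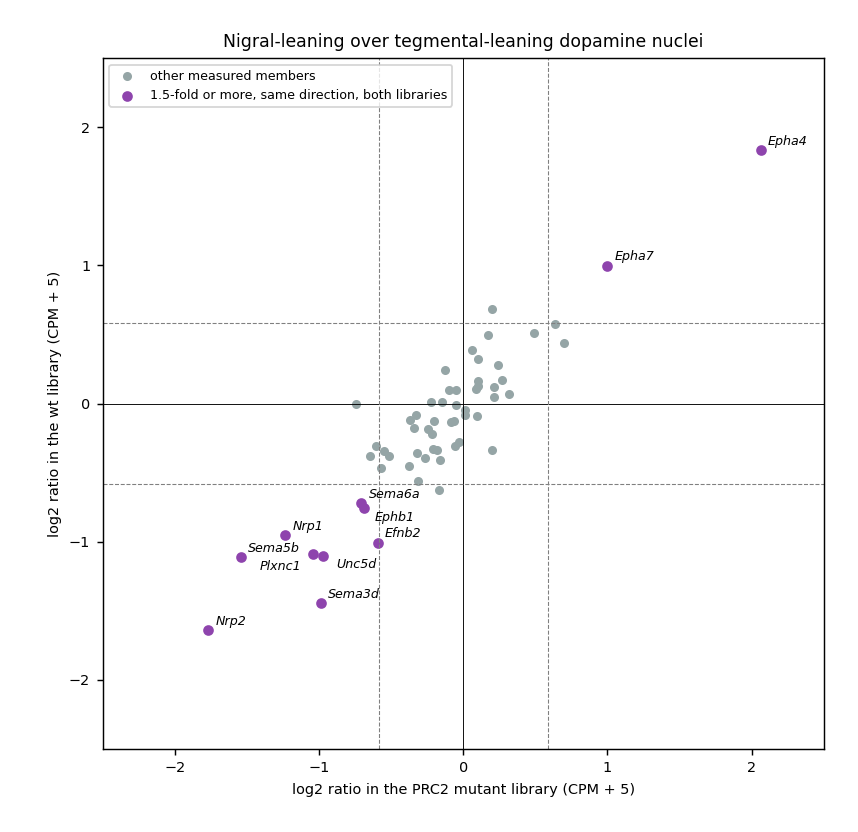
log2 ratio of nigral-leaning to tegmental-leaning dopamine nuclei on CPM + 5 for each measured member, with the PRC2 mutant library on the horizontal and the wt library on the vertical axis; dashed lines mark 1.5-fold. Epha4 and Epha7 lie in the upper right and 9 members, Nrp2 the lowest, in the lower left.

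The 4 genotype differences were then read within each side. Slit3 had 105 CPM in mutant and 57.0 CPM in wt nigral-leaning nuclei, a log2 ratio of 0.83, and 90.7 CPM in mutant and 73.3 CPM in wt tegmental-leaning nuclei, 0.29. Epha3 had log2 ratios of -0.76 in nigral-leaning and -0.39 in tegmental-leaning nuclei, Unc5c of -0.67 and -0.42, and Sema5b of -0.74 and -0.31. All 4 kept their direction on both sides and were past 1.5-fold on the nigral side. Summed nigral markers were 750 CPM in mutant and 986 CPM in wt dopamine nuclei, and summed tegmental markers 176 CPM in mutant and 237 CPM in wt, so the lists that draw the line themselves differed in level. Their part in these values was not tested.

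Since dopamine tags per nucleus were fewer in the mutant, the same members were also compared among nuclei with 5 to 10, 10 to 20 and 20 or more dopamine tags per 10000, which held 775, 1589 and 511 mutant and 143, 317 and 860 wt nuclei. Unc5c was lower in the mutant in every range, at 886, 801 and 886 CPM in the mutant and 1703, 1315 and 1220 CPM in the wt library. Epha3 was likewise lower in every range, with log2 ratios of -0.25, -0.72 and -0.84. Plxna4 was higher in every range, with log2 ratios of 0.59, 0.53 and 0.62. Slit3 did not hold its direction: it had 104, 102 and 91.8 CPM in the mutant and 127, 83.2 and 49.5 CPM in the wt library. In the wt library Slit3 was lower where dopamine tags were more, while the mutant ranges were nearly level. Sema5b had log2 ratios of 0.15, -1.14 and -0.11, and its direction therefore also depended on the range. Nrp1, within 1.5-fold over all dopamine nuclei, had 59.3, 47.7 and 64.9 CPM in the mutant and 162, 75.7 and 22.6 CPM in the wt library. The part of the dopamine tag level in these differences was not tested.

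**Figure D5:**
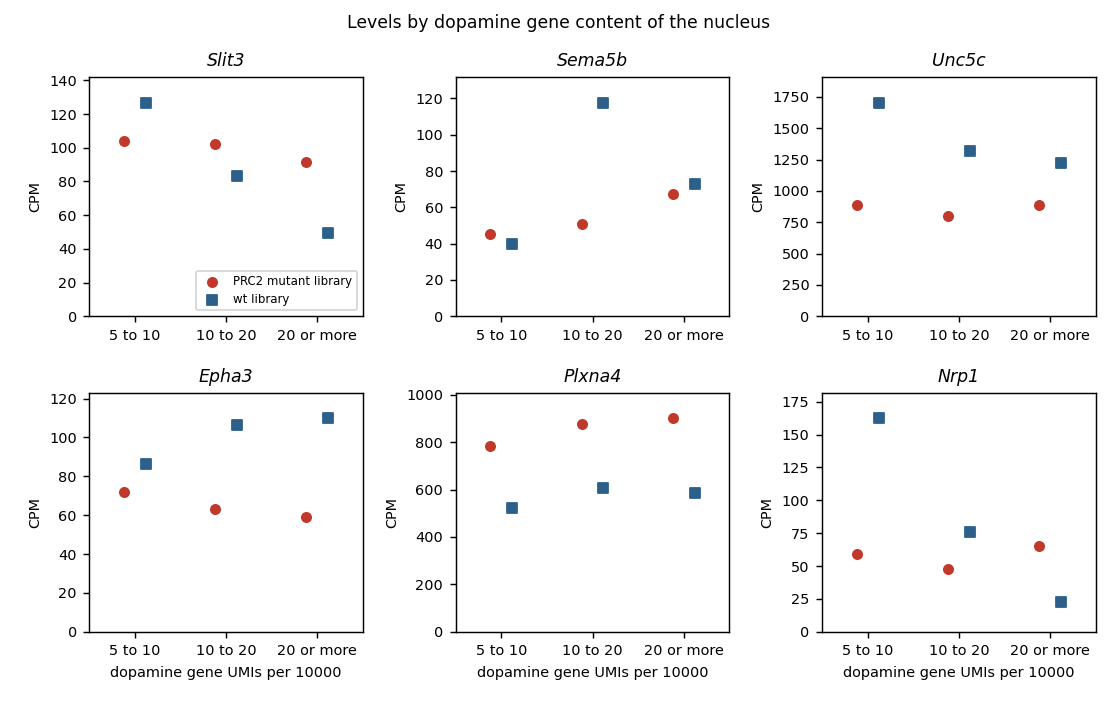
Level in CPM of 6 members in dopamine nuclei by the number of dopamine gene UMIs per 10000, for the PRC2 mutant (red circles) and wt (blue squares) libraries, 1 point per library and range. Unc5c and Epha3 are lower and Plxna4 higher in the mutant in all 3 ranges, while the points of Slit3, Sema5b and Nrp1 cross.

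Mutant dopamine nuclei could be split further by Hox genes, which PRC2 is known to silence in the midbrain. At least 1 tag of 31 Hox genes was found in 2291 mutant dopamine nuclei, and 584 had none; in the wt library 3 nuclei had a tag. Depth differed between the mutant groups, with median totals of 21456 UMIs with a tag and 11136 UMIs without, and a deeper nucleus is more likely to show a tag. Sema5b had 41.0 CPM in mutant nuclei with a Hox tag and 132 CPM in mutant nuclei without, against 81.6 CPM in wt nuclei without. Its ratio to wt without a tag was thus 1.61, on the other side of 1 from that over all dopamine nuclei. Nrp1 had 42.3 CPM in mutant nuclei with a tag and 139 CPM without, against 44.5 CPM in wt nuclei without, a ratio of 3.12 for the nuclei without. Unc5c had 792 CPM in mutant nuclei with a tag and 1178 CPM without, against 1278 CPM in wt nuclei without. For Epha3 the levels were 62.7 CPM in mutant nuclei with a tag and 83.0 CPM without, against 107.5 CPM in wt nuclei without. Unc5c and Epha3 were thus lower than wt in both mutant groups, by less in the nuclei without a tag. Slit3 had 104 CPM in mutant nuclei with a tag and 81.8 CPM without, against 62.9 CPM in wt nuclei without. Epha7 had 85.7 CPM in mutant nuclei with a tag and 43.0 CPM without, against 119.5 CPM in wt nuclei without. Epha4 had 157 CPM in mutant nuclei with a tag and 43.2 CPM without, against 162 CPM in wt nuclei without. Other members higher in tegmental-leaning nuclei were also read without a tag. Ratios to wt were 1.24 for Sema6a, 1.62 for Nrp2, 1.84 for Plxnc1, 1.81 for Unc5d and 1.99 for Ephb1. Sema3d and Efnb2 went the other way, at 0.821 and 0.894. The parts of depth and of nigral or tegmental makeup in this split were not tested.

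Sema5b was also concentrated in nuclei with 2 or more tags per 10000 of Sulf1, which encodes an extracellular heparan sulfatase. Such nuclei numbered 203 in the mutant and 143 in the wt library, and their Sema5b level was 216 CPM in the mutant and 382 CPM in the wt. In the remaining dopamine nuclei it was 42.8 CPM in the mutant and 54.2 CPM in the wt library, a log2 ratio of -0.31, within 1.5-fold. Unc5c had log2 ratios of -0.47 in the Sulf1-tagged and -0.60 in the remaining nuclei. Epha3 had 135 CPM in mutant and 142.5 CPM in wt Sulf1-tagged nuclei, a log2 ratio of -0.07, and -0.72 in the remaining nuclei. Slit3 had 106.5 CPM in mutant and 104 CPM in wt Sulf1-tagged nuclei, a log2 ratio of 0.03, and 0.73 in the remaining nuclei.

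Other genes of the guidance pathways were read by the same call. Their counts are read against the shares of all genes, 1.99% higher and 1.46% lower in dopamine nuclei and 1% higher and 1.94% lower in other nuclei. Of 26 measured co-receptors and adhesion partners, 1 was higher in mutant dopamine nuclei and none was lower. That gene was Ptk7, a pseudokinase receptor of planar polarity signalling, with 18.1 CPM in mutant and 8.91 CPM in wt dopamine nuclei. Of 40 measured intracellular effectors, 1 was higher and 1 was lower. Mical2, an actin-oxidising enzyme, had 114 CPM in mutant and 69.2 CPM in wt dopamine nuclei. Ngef (ephexin), which acts below EphA receptors, had 6.43 CPM in mutant and 12.4 CPM in wt dopamine nuclei. The medians of the 2 lists were log2 ratios of 0.08 and 0.11, against 0.02 for all genes. In other nuclei none of 25 measured co-receptors was called. Of 38 measured effectors there, none was higher and 1 was lower, Dock1, with 41.8 CPM in the mutant and 81.0 CPM in the wt library.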

How the data were processed

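Nuclei from adult mouse midbrain were profiled as 1 PRC2 mutant and 1 wt library. The deposited table gives unnormalised UMI counts for each gene in each nucleus, as the values show; library membership was read from the start of each column name. Cell Ranger 3.1.0 and mm10 appear in the submitters' processing notes, with no role stated. The sources used here do not give the handling of intron reads and of strand. The lowest gene number per nucleus was 502; doublets were not called, and no nucleus was removed. UMIs were summed per library and class and scaled to CPM; ratios were taken of CPM + 5 where a class held 50 UMIs or more of a gene in all, and 1.5-fold was called. Exact Poisson and binomial 95% intervals cover counting error only. Shares used nuclei thinned to 2000 UMIs, leaving out 27 mutant and 35 wt dopamine nuclei, and 73 mutant and 41 wt other nuclei. No test was made, since 1 library stood for each genotype. Python 3.11.15, numpy 2.4.6, scipy 1.17.1, pandas 2.3.3 and matplotlib 3.10.9 were used, and the calls were tested on simulated data. There, 58% of genes raised 2-fold and 41.7% of genes lowered 2-fold were called, and 100% of either at 20 CPM or more. Genes were altered by 2-fold or 4-fold only. These shares therefore do not show how often a difference near 1.5-fold is called. Of 16113 unaltered genes 0 were called, but the simulation held counting error only. It had no spread between mice or in the makeup of nuclei, so it could not test for these. Gene spans came from GENCODE M21. All called members, the 2 highest of each family and those near the call were named; members named from the class and subtype comparisons, and from Hox and Sulf1 splits, were chosen after their values were seen. Members and lists were chosen with earlier results of these data known. Glia-led nuclei had 30 or more UMIs per 10000 of 1 glial or vascular list. Lhfpl3 was left out of these lists after it was found in 75.9% or more of the nuclei of each class and library. It was kept in the summed tags of the alternative glial limit of 10 per 10000. Alternatives changed the added CPM, the UMI minimum, the dopamine and glial limits, the weighting, the scaling and the fold.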

Additional observations from a re-analysis of the deposited data

Results flagged for a closer look

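The mutant over wt ratio ran in opposite directions in dopamine and other nuclei for 2 called members, each class taken as a whole. For Sema5b it was 0.628 in dopamine nuclei and 1.15 in other nuclei (95% interval 1.01 to 1.31, counting error only). For Epha3 it was 0.605 in dopamine nuclei and 1.14 in other nuclei (1.05 to 1.24). With a limit of 10 dopamine tags per 10000 the Epha3 log2 ratio in other nuclei was -0.07, against 0.18 as reported. The difference between the classes was not tested, because each genotype had 1 library.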

How the results depend on the processing

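No paired analysis was possible because each genotype was 1 library of pooled nuclei, whose lanes the table does not keep apart; for the same reason no replicate could be left out. In dopamine nuclei (1 member higher, 3 lower; 1.99% and 1.46% of all genes), adding 1 CPM gave 5 lower (3.63% of all genes), and a limit of 3 dopamine tags per 10000 gave 0 higher (1.86%). Keeping only nuclei with under 10 glial and vascular tags per 10000 gave 4 higher and 5 lower (3.46% and 2.1%). The tags summed for this limit still included Lhfpl3. Their median lay above the limit in mutant dopamine nuclei and in other nuclei of both libraries, so most of those nuclei were left out. These calls therefore do not show the effect of removing glia. Leaving out only glia-led dopamine nuclei kept the reported calls. Weighting nigral-leaning and tegmental-leaning nuclei equally gave 0 higher and 1 lower, Sema3d (2.02% and 1.28%). Weighting the dopamine tag ranges equally, an alternative chosen after seeing the data, gave 0 higher and 10 lower (1.9% and 2.44%), with summed neuropilins at -0.63 on the log2 scale. A 2-fold call gave 0 in both directions. In other nuclei (0 higher, 1 lower; 1% and 1.94% of all genes), adding 1 CPM gave 2 higher and 4 lower (3.05% and 4.66%), and adding 10 CPM gave 0 lower (1.04%). A limit of 3 tags gave 1 higher and 2 lower (1.21% and 2.01%); a limit of 10 gave 1 higher and 6 lower (1.8% and 2.34%), with summed neuropilins at -0.62. Other nuclei under 2 tags gave 2 lower (2.36%), equal weight per nucleus 2 higher and 3 lower (1.85% and 4.58%), and under 10 glial tags 2 higher (2.91%). The 1 lower member under that glial limit was Sema3c and not Plxnb3, with 50 members measured (1.75% of all genes lower). Leaving out glia-led nuclei, also chosen after seeing the data, gave 0 lower (1.07%), as did the 2-fold call. The causes were not tested. No ratio called in dopamine nuclei changed sign (52 values). Plxnb3, called in other nuclei, was in neither that count nor the next. Of all 575 values of the named members' ratios, 551 kept their side of the call, 16 passed it and 8 no longer did, and 41 had the opposite sign to the reported one, each for a ratio within 1.5-fold. Among these, with dopamine tag ranges weighted equally, Nrp1 in dopamine nuclei was at -0.56 (0.23 as reported) and Robo2 at 0.24 (-0.11); with a limit of 10 tags, Sema3d in other nuclei was at -0.17 (0.51). The sign also changed for 10 of 18 family sums, including the neuropilins in dopamine nuclei (0.03 as reported). The limits are 1 library of 3 mice per genotype, a class rule made of genes that differ in level between the libraries, and the depth of wt other nuclei (7156906 UMIs), which limits which low members can be called.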
